A study of Xenopus laevis with 28 samples.

Results

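Gene models for lens crystallins, lens fibre membrane and filament proteins, opsins, the phototransduction cascade and the visual cycle were followed through the embryonic development of *Xenopus laevis*. They were picked by symbol (crystallins of the alpha, beta and gamma families, mip, bfsp, opn, gnat1, gnb1, pde6, rpe65, guca1, arr3, rbp3, rlbp1, rcvrn and cnga), which gave 61 of the 45831 gene models in the table. By role, 19 were lens models, 23 belonged to the photoreceptor cascade of the retina, 5 to the visual cycle and 7 to the non-visual opsins. The other 7 were gnb1.L, gnb1.S, gnb1l.L, pde6d.1, pde6d.S, cnga2-like.L and cnga4.L, which the symbol rule caught although their products are found widely or in other senses. No model was named cryaa, lim2, gnat2, sag or rho, so neither alpha A crystallin nor rod opsin could be followed by name.

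The RNA came from unfertilized eggs and whole embryos of the inbred J strain, with no treatment and no mutation, and was sequenced as poly-A RNA without strand information. A staged series held eggs and Nieuwkoop-Faber stages 8, 9, 10.5, 12, 15, 20, 25, 30, 35 and 40 in 2 clutches, called Taira and Ueno, with 1 library per stage and clutch. A second Ueno series gave 1 library each of stages 8, 10 and 35, and 3 further libraries came from oocytes. Each series has its own number in the sample titles, so clutch cannot be told apart from any other difference between the series. Values are TPM, the share of a library's transcripts that a gene model takes, corrected for its length, so that levels can be compared between genes. Since whole embryos were taken, more RNA per cell and more cells of a type cannot be told apart.

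In the vertebrate eye the lens forms from surface ectoderm that thickens beside the optic cup, and its fibre cells then fill with crystallins, the soluble proteins that give the lens its refractive power. Photoreceptors differentiate later from the neural retina. In their outer segments light changes the shape of an opsin, which switches on transducin, which in turn switches on a phosphodiesterase, and the fall in cyclic GMP closes cation channels. Arrestin ends the opsin signal, recoverin and the guanylate cyclase activators read calcium, and the visual cycle of the pigment epithelium and Müller glia returns the retinal chromophore to the opsin. *X. laevis* is an allotetraploid frog, and most genes have a copy on each of the subgenomes, marked L and S.

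The library labelled stage 40 Ueno did not have the profile of a stage 40 embryo and was left out. In it ccnb5.L, an egg cyclin, was at 1676 TPM, against 0 in stage 40 Taira and 1621 in the Ueno egg, and ckm.L, muscle creatine kinase, was at 0.26 TPM against 2920 in stage 40 Taira. Stage 40 is therefore 1 library, the Taira one, and its tests assume that it varies as the other stages did. They also assume that the clutches differ by the same amount at every stage. TPM holds no depth, but the stage 35 Ueno library had 24588 models at 0, against 12735 to 16861 in the other libraries of stages 25 to 40 that were used, and 33 of the 61 models were at 0 in it, against 9 in stage 35 Taira and 6 in the second stage 35 Ueno library. From stage 20 to 35, between 71.4% and 75.9% of all tested models were higher in Taira than in Ueno. Stage differences were tested with limma on log2(TPM + 1), with stage and clutch as terms, in 21 libraries and in the 28171 models with at least 1 TPM in at least 2 of them, and a model was called at a Benjamini-Hochberg adjusted p under 0.05. Folds below are fitted log2 differences on that scale ± SE, which understates the change of low models.

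The stage 8 Ueno library also stood apart, for lens genes in particular. It held 28.4 TPM of crybb2.L and 27.1 TPM of crybb2.S, which encode beta B2 crystallin, 7.79 TPM of crybb3.L and 7.12 TPM of cryba1.L. All 4 were at 0 in stage 8 Taira, and in the second stage 8 Ueno library they were at 0 except for cryba1.L at 0.04 TPM. Of 46 lens, retina and visual cycle models other than rpe65.S, 14 reached 1 TPM in stage 8 Ueno, with a summed level of 97.1 TPM, against 1 model and 5.02 TPM in stage 8 Taira and 0 models and 3.49 TPM in the second stage 8 library. In stage 9 Ueno all 4 were at 0. Smaller levels were seen again in later Ueno libraries, with crybb2.S at 4.80 TPM at stage 10.5 and 3.96 TPM at stage 12. No library from stage 15 on had such levels of crybb2, and its 2 models were at most at 0.57 TPM in the libraries of stages 25 to 40. The cause was not tested. The counts of models called higher were 5, 15, 4, 19 and 21 without this library, against 4, 15, 6, 19 and 22 with it, in the order stage 25 to 30, 30 to 35, 35 to 40, 25 to 35 and 25 to 40.

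**Figure D1:**
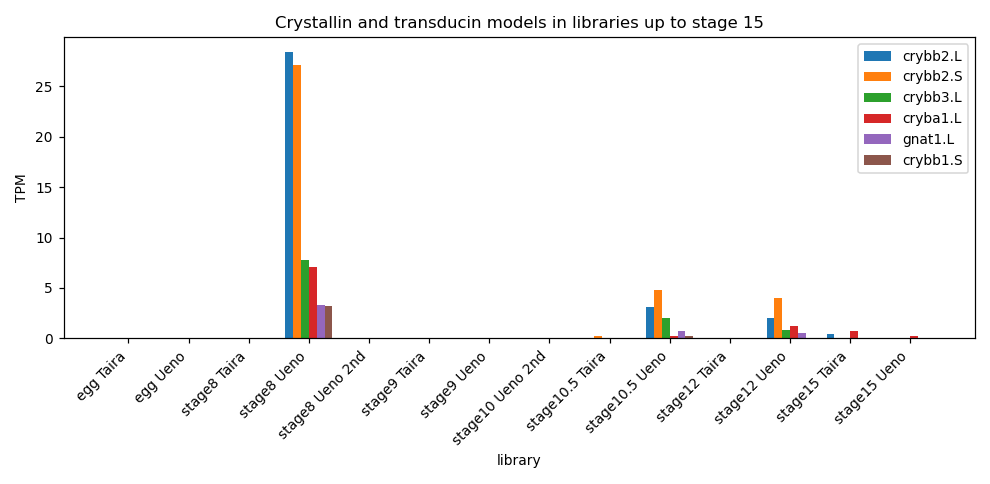
TPM (linear axis from 0) of 6 lens and retina models in each egg and embryo library up to stage 15, 1 bar per model and library. The bars of stage 8 Ueno reach 28.4 TPM, those of stage 10.5 Ueno and stage 12 Ueno reach 4.80 and 3.96 TPM, and the other libraries show almost none.

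At a threshold of 1 TPM, the beta crystallins cryba1, cryba4 and crybb1 appeared at stage 30. That was before most of the retina models but after rpe65.S, arr3.L and rlbp1.L. At stage 25 the 19 lens models summed to 4.04 TPM in Taira and 2.85 TPM in Ueno. The sum was 63.1 and 65.9 TPM at stage 30, 477 and 218 TPM at stage 35, with 232 TPM in the second Ueno library, and 1072 TPM at stage 40. The 23 retina models stood at 35.1 and 24.9 TPM at stage 25, most of it from arr3.L, at 23.8 and 17.1 TPM at stage 30, at 103 and 44.9 TPM at stage 35 and at 377 TPM at stage 40. The lens sum thus lay above the retina sum in each library from stage 30 on, and below it in both libraries of stage 25.

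An onset was read as the first stage from which a model had at least 1 TPM in every library of the staged series, the second Ueno series and stage 40 Ueno left out. It fell at stage 30 for 6 lens models, the L and S copies of cryba1, cryba4 and crybb1, at stage 35 for crygb.L, mip.L and mip.S and at stage 40 for bfsp1.L and bfsp2.L, and the other 8 had none. In the retina it fell at stage 30 for 0 models, at stage 35 for 7 and at stage 40 for 5, and before stage 25 for arr3.L, while 10 had none. One of the 7, opn1sw.L, was at 0.28 TPM in the second stage 35 Ueno library, and one of the 5, guca1a.S, had been higher in Taira at earlier stages. Of the 7, rcvrn.2.L and rcvrn.2.S already passed 1 TPM in stage 30 Taira, at 1.49 and 1.04 TPM. opn1lw.1 did so in stage 30 Ueno, at 1.07 TPM, as did crygb.L of the lens, also at 1.07 TPM. With a threshold of 5 TPM, 4 lens models and 0 retina models had their onset at stage 30. A second measure was the first stage at which the Taira library reached 10% of its own stage 40 TPM. Among models with at least 10 TPM in stage 40 Taira, it gave stage 35 for 9 of 9 lens models. It gave stage 35 for 5 of 6 retina models and stage 15 for arr3.L, so by it the lens did not come first. These are counts over models of 2 lists, with no test of the difference between lens and retina. Of the lens models 12 and of the retina models 12 passed the filter for testing. Most models that were low before stage 30 could pass only through their level in late embryos, which fixes the direction of their change. crybb2.L, crybb2.S and crybb3.L passed through the early Ueno libraries. gnat1.S passed only with stage 8 Ueno, at 1.74 TPM, beside stage 40 Taira, at 7.99 TPM.

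**Figure D2:**
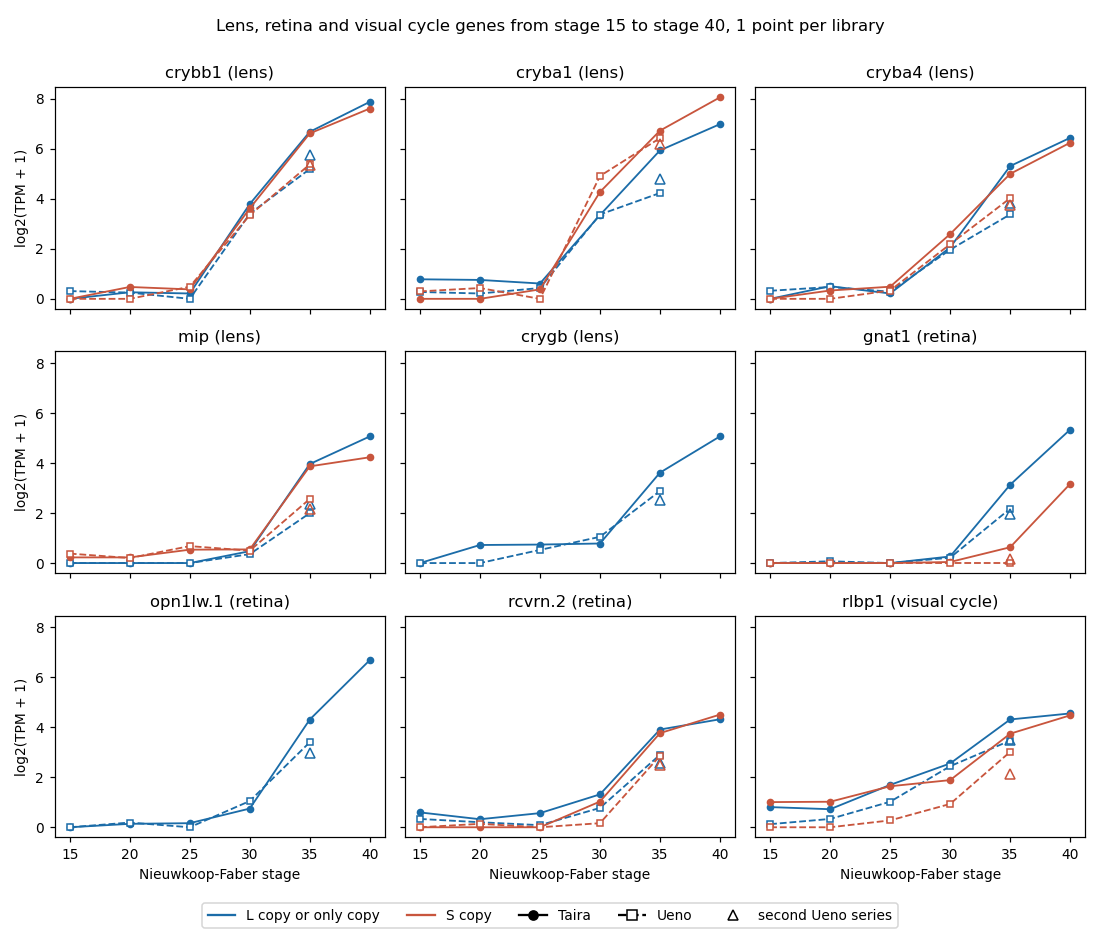
log2(TPM + 1) against Nieuwkoop-Faber stage for 9 lens, retina and visual cycle genes, with 1 point per library (filled for Taira, open for Ueno, triangles for the second Ueno series, blue for L or single copies, red for S). The curves of crybb1, cryba1 and cryba4 leave the base line at stage 30, and those of mip, crygb, gnat1.L, opn1lw.1 and rcvrn.2 between stages 30 and 35.

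Between stage 25 and stage 30, 4 models were called higher, all of them beta crystallins, and 1.74% of all tested models were called higher. The 4 were cryba1.S, cryba4.S, crybb1.L and crybb1.S, of 12 lens models tested, and 8 models were called without stage 35 Taira or without stage 35 Ueno, which change the shared estimate of the spread. Of the 12 retina models tested, limma called 0, and 2 had an unadjusted p under 0.05 with a higher level at stage 30. The model cryba1.S (Xelaev18014166m), which encodes beta A1 crystallin, was at 0.30 TPM in Taira and 0 in Ueno at stage 25 and at 18.4 and 29.2 TPM at stage 30. The groups were far apart, and the log2 difference was 4.41 ± 0.44 (limma adjusted p = 0.000101). Beta B1 crystallin gave the next largest changes. Its L copy crybb1.L (Xelaev18007505m) was at 0.16 and 0 TPM at stage 25 and at 12.9 and 9.60 TPM at stage 30, a log2 difference of 3.49 ± 0.39 (limma adjusted p = 0.000218). The S copy was at 0.30 and 0.40 TPM and then at 11.3 and 9.18 TPM, with a log2 difference of 3.05 ± 0.52 (limma adjusted p = 0.00546). The call of crybb1.S was lost without the stage 25 Taira library, without the stage 30 Taira library and with a pseudocount of 0.1, with limma adjusted p up to 0.0708 when 1 library was left out. For cryba4.S, a copy of beta A4 crystallin, 0.40 and 0.26 TPM stood against 5.03 and 3.55 TPM, a log2 difference of 1.98 ± 0.27 (limma adjusted p = 0.000896).

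The L copies of the beta A crystallins had similar values but missed the threshold. In cryba1.L the level was 0.53 and 0.35 TPM at stage 25 and 9.21 and 9.37 TPM at stage 30 (log2 difference 2.84 ± 0.74, limma adjusted p = 0.0577). In cryba4.L it was 0.16 and 0.22 TPM and then 3.16 and 2.91 TPM (log2 difference 1.76 ± 0.47, limma adjusted p = 0.0646). In both, the stage 25 and stage 30 libraries did not overlap. The SE draws on all stages, and cryba1.L was at 7.12 TPM in stage 8 Ueno against 0 in stage 8 Taira. For cryba1.S the stage 8 Ueno level was 2.39 TPM. Without stage 8 Ueno, 5 models were called higher at this step, against 4 with it. The value of cryba1.L in that fit is not given here, and the cause of its miss was not tested. cryba4.L also had low levels in eggs, at 1.05 and 2.29 TPM.

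From stage 30 to stage 35, 15 models were called higher, 8 of the lens, 5 of the retina and 2 of the visual cycle, and 2.09% of all tested models were called higher, beside 0.909% lower. The count was 8 without stage 30 Ueno and 5 with a pseudocount of 0.1. The retina models called were opn1lw.1, gnat1.L, pde6h.S, rcvrn.2.L and rcvrn.2.S, of 12 tested. The lens major intrinsic protein, aquaporin 0 of the fibre cell membrane, has 2 models. mip.L was at 0.39 and 0.28 TPM at stage 30 and at 14.6 TPM in Taira, 2.99 TPM in Ueno and 4.14 TPM in the second Ueno library at stage 35, a log2 difference of 2.56 ± 0.42 (limma adjusted p = 0.00306). mip.S was at 0.46 and 0.41 TPM and then at 13.6, 4.92 and 3.46 TPM, with a log2 difference of 2.70 ± 0.35 (limma adjusted p = 0.000458). Taira had the higher level at stage 35 in both copies, and the lowest stage 35 library was still above each stage 30 library. The gamma crystallin crygb.L, of a family laid down in the core of the lens, was at 0.72 and 1.07 TPM at stage 30 and at 11.3, 6.37 and 4.69 TPM at stage 35. It rose by a log2 difference of 2.33 ± 0.27 (limma adjusted p = 0.000147), and this call and those of mip.L and mip.S held whichever of the libraries of stages 25 to 40 was left out.

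The beta crystallins called at this step were cryba1.S, cryba4.L, cryba4.S, crybb1.L and crybb1.S, with log2 differences between 1.99 and 2.52. At stage 35, cryba1.S was at 105 TPM in Taira, 85.3 TPM in Ueno and 72.8 TPM in the second Ueno library. crybb1.L was at 102, 35.6 and 53.3 TPM, and crybb1.S at 97.4, 40.7 and 40.5 TPM. Taira was the highest library for each of them. Of these 5 calls, only that of cryba4.S held whichever library was left out, and all 5 were lost with a pseudocount of 0.1.

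In the retina, opn1lw.1, recoverin and rod transducin moved at this step. opn1lw.1 (Xelaev18003536m) encodes the long-wavelength opsin of red-sensitive cones. It was at 0.12 TPM and 0 at stage 25, at 0.68 and 1.07 TPM at stage 30 and at 18.8, 9.57 and 6.86 TPM at stage 35, in Taira, Ueno and, for stage 35, the second Ueno library. No stage 35 library overlapped with stage 30, and the log2 difference from stage 30 to 35 was 2.96 ± 0.42 (limma adjusted p = 0.000929). That call was lost with a pseudocount of 0.1, as were those of gnat1.L and pde6h.S at this step. gnat1.L (Xelaev18023829m), the alpha subunit of rod transducin, had a listed level of 0 at stage 25 in both clutches, was at 0.20 and 0.16 TPM at stage 30 and was at 7.78, 3.52 and 2.95 TPM at stage 35. Its log2 difference from stage 30 was 2.42 ± 0.49 (limma adjusted p = 0.0133), and the call was lost without either stage 30 library or without stage 35 Taira, with limma adjusted p up to 0.141.

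Recoverin, a calcium sensor of photoreceptors that restrains rhodopsin kinase, gave the smallest adjusted p among the retina models at this step. rcvrn.2.S was at 1.04 and 0.12 TPM at stage 30 and at 12.6, 6.25 and 4.68 TPM at stage 35, a log2 difference of 2.72 ± 0.30 (limma adjusted p = 0.000137). rcvrn.2.L was at 1.49 and 0.71 TPM and then at 14.1, 6.46 and 4.96 TPM, with 2.36 ± 0.29 (limma adjusted p = 0.000256). The copies thus moved alike and within the same stage. The inhibitory subunit of cone phosphodiesterase, pde6h.S, was lower, at 0.16 and 0.15 TPM and then at 3.22, 2.06 and 1.47 TPM, and was also called (1.64 ± 0.26, limma adjusted p = 0.00258). Its L copy was at 2.24 TPM in stage 35 Taira, at 0 in Ueno and at 0.53 TPM in the second Ueno library, and was called only from stage 25 to 40.

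The third step, from stage 35 to stage 40, rests on 1 stage 40 library. There 6 models were called higher, and 0.408% of all tested models were called higher and 0.0355% lower. They were opn1sw.L, gnat1.S, opn1lw.1 and rbp3.L among photoreceptor and visual cycle genes and crygb.L and cryba4.S in the lens. opn1sw.L, the short-wavelength cone opsin, was at 1.27, 1.02 and 0.28 TPM at stage 35 and at 10.9 TPM at stage 40, with a log2 difference of 2.35 ± 0.26 (limma adjusted p = 0.00097). gnat1.S was at 0.55 TPM in Taira, 0 in Ueno and 0.13 TPM in the second Ueno library and at 7.99 TPM at stage 40 (2.92 ± 0.43, limma adjusted p = 0.0066). Both were several-fold above every stage 35 library at stage 40. Both calls held whichever library of stages 25 to 35 was left out, but not with a pseudocount of 0.1. That of opn1sw.L was also lost in a fit of stages 15 to 40 alone. gnat1.S was not tested in that fit, nor without stage 8 Ueno, since it then missed the filter. opn1lw.1 was at 102 TPM at stage 40 (2.93 ± 0.52, limma adjusted p = 0.0214). rbp3.L, the retinoid-binding protein of the space between photoreceptors and pigment epithelium, was at 1.12 TPM in stage 35 Taira, 0 in Ueno and 0.16 TPM in the second Ueno library and at 10.0 TPM at stage 40 (2.96 ± 0.50, limma adjusted p = 0.0164). Within the Taira clutch alone, with no test, the log2 difference from stage 35 to 40 was 2.39 for opn1sw.L, 2.54 for gnat1.S, 2.38 for opn1lw.1 and 2.38 for rbp3.L, and 1.45 for crygb.L and 1.25 for cryba4.S. Fitted values differ from these because they use both stage 35 libraries and a single clutch difference for all stages. The calls of opn1lw.1, rbp3.L, crygb.L and cryba4.S were lost without stage 35 Ueno, the library with most models at 0, and that of cryba4.S, at a limma adjusted p of 0.0491, was lost in 5 of the 6 fits that left out 1 library. The whole step went from 6 calls to 13 without stage 35 Taira and to 2 without stage 35 Ueno.

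The lens models were nearer to their stage 40 level at stage 35 than most retina models. Among models with at least 10 TPM in stage 40 Taira, the 9 lens models had a median of 5.48% of that level in stage 30 Taira and of 44.9% in stage 35 Taira, with a range at stage 35 from 34.6% to 76.5%. The 6 retina models had a median of 3.77% at stage 30 and of 22.7% at stage 35, with a range from 11.7% to 74.0%. The ranges overlapped, since both recoverin copies, as retina models, had passed most of the way by stage 35, and no test was made. In stage 40 Taira the order of the levels of lens and retina models was cryba1.S at 267 TPM, crybb1.L at 235 TPM, crybb1.S at 195 TPM, arr3.L at 152 TPM, cryba1.L at 126 TPM and opn1lw.1 at 102 TPM. After these came cryba4.L at 86.0 TPM, cryba4.S at 75.0 TPM and gnat1.L at 39.5 TPM. With 1 library, the spread around these levels is not known.

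**Figure D3:**
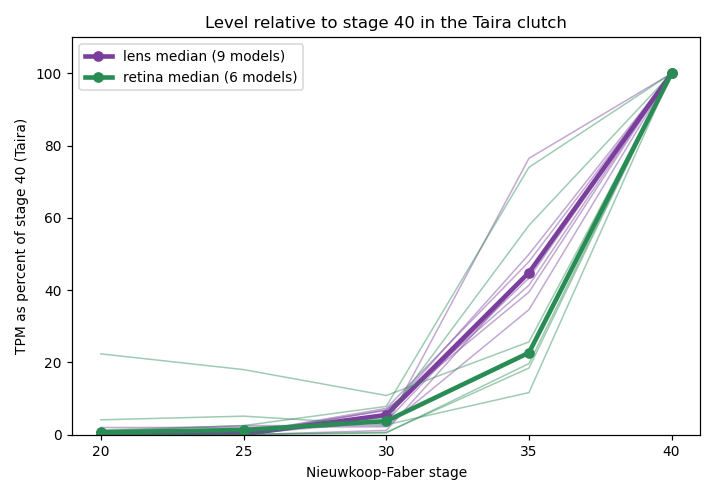
Level in the Taira clutch at stages 20 to 40 as percent of its own stage 40 TPM, for the 9 lens and 6 retina models with at least 10 TPM at stage 40 (thin lines) and their medians (thick lines). At stage 35 the lens median is 44.9% and the retina median 22.7%, and single models of both kinds overlap.

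Over the longer spans most of the eye genes with a measurable level were called. From stage 25 to stage 35, 19 models were higher and 5 lower, beside 9.01% and 19.4% of all tested models. Between stages 25 and 40, 22 were higher and 2 lower, beside 9.22% and 19.1%. Over the span to stage 40, 9 of 12 tested lens models, 9 of 12 tested retina models and 4 of 5 visual cycle models rose. Most of the models called higher could pass the filter only with their level in late embryos. The direction of their change was thus fixed beforehand, and their share beside that of all tested models is no test. The log2 differences of the called lens models lay between 3.57 and 8.12 with limma adjusted p from 8.66e-08 to 0.000222, and those of the retina models between 2.18 and 6.71 with limma adjusted p from 1.11e-06 to 0.00078. These ranges include fitted values of models listed at 0 at stage 25, which depend on the pseudocount. With no filter on low values, the median log2 difference from stage 25 to 40 was 0.61 over the 59 of the 61 models that could be fitted, against -0.18 over all 39094 models. Over all models that passed the filter the median was -0.49, and after median-of-ratios scaling it was -0.05, and the split of all calls between stages 25 and 40 changed from 2597 higher and 5381 lower to 4254 higher and 2688 lower. The largest changes from stage 25 to 40 were cryba1.S at 8.12 ± 0.55, crybb1.L at 7.75 ± 0.49 and crybb1.S at 7.21 ± 0.65, and in the retina opn1lw.1 at 6.71 ± 0.52. For mip.L, gnat1.L, gnat1.S, rcvrn.2.S and guca1b-like.S the stage 25 level was listed at 0 in both libraries and no fold is given. The limma adjusted p of these 5 from stage 25 to 40 ranged from 2.37e-06 for rcvrn.2.S to 0.00023 for guca1b-like.S.

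At stage 35 the clutches differed in level. All 9 lens and all 6 retina models with at least 10 TPM in a late library were higher in Taira than in both Ueno libraries. The Ueno level was a median of 36.1% of the Taira level in the lens models, with a range from 20.5% to 81.1%, and of 47.8% in the retina models, from 31.7% to 80.3%. The second Ueno library gave medians of 41.6% and 36.8%. At this stage 75.9% of all tested models were higher in Taira, with a median log2 difference of 0.54, and the median of the 23 models with at least 10 TPM was 1.01. At stage 30 that median was 0.27 beside 0.46 over all models. Whether the clutches were at the same point within the stage was not tested.

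**Figure D4:**
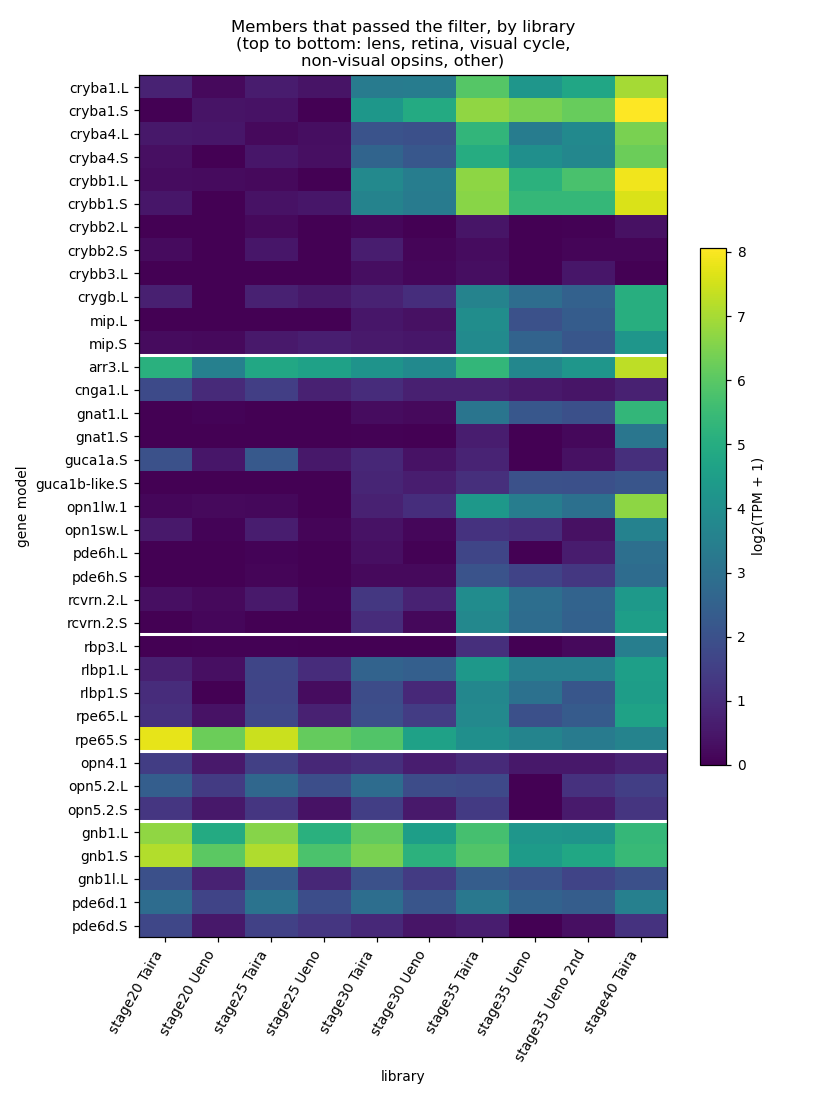
log2(TPM + 1), as colour, of the 37 models that passed the filter in each library from stage 20 to 40, with white lines between lens, retina, visual cycle, non-visual opsin and other models. The rows of cryba1, cryba4 and crybb1 brighten from stage 30, those of crybb2 and crybb3 stay dark, mip, crygb.L and most retina rows from stage 35, and rpe65.S, gnb1.L and gnb1.S are brighter in stage 20 Taira than in stage 40 Taira.

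The visual cycle models had onsets spread from stage 10.5 to stage 40. rlbp1, the retinal carrier of pigment epithelium and Müller glia, was measurable at stage 25, with rlbp1.L at 2.24 TPM in Taira and 1.03 TPM in Ueno. At stage 30 it was at 4.87 and 4.44 TPM, at stage 35 at 18.9, 10.1 and 10.2 TPM and at stage 40 at 22.5 TPM. From stage 25 to 35 it rose by a log2 difference of 2.53 ± 0.31 (limma adjusted p = 6.15e-05). rlbp1.S was at 2.12 and 0.21 TPM at stage 25, at 12.4, 7.10 and 3.42 TPM at stage 35 and at 21.3 TPM at stage 40, and rose by 2.42 ± 0.38 from stage 25 to 35 (limma adjusted p = 0.000498). These were the visual cycle models called from stage 30 to 35, with 1.39 ± 0.31 for L (limma adjusted p = 0.0224) and 1.97 ± 0.38 for S (limma adjusted p = 0.00934). Both of these calls were lost without stage 30 Ueno, with a pseudocount of 0.1 and without the clutch block. That of rlbp1.L was also lost without stage 30 Taira, without stage 35 Taira and in a fit of stages 15 to 40 alone. That of rlbp1.S was also lost with the second-series library in place of stage 35 Ueno.

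The copies of rpe65, the isomerase that remakes 11-cis retinal in the pigment epithelium, ran in opposite directions. rpe65.S (Xelaev18025098m) was at 0.06 TPM and 0 at stage 9, at 10.4 and 8.85 TPM at stage 10.5, at 107 and 59.3 TPM at stage 12 and at 273 and 170 TPM at stage 15. Its level was then 217 and 74.5 TPM at stage 20, 171 and 71.0 TPM at stage 25, 57.2 and 23.4 TPM at stage 30, 15.1, 11.5 and 9.33 TPM at stage 35 and 11.3 TPM at stage 40. Stage 15 was the highest stage in both clutches, before an eye with pigment epithelium has formed. The stage 10 library of the second Ueno series, at 15.9 TPM, also held it. It fell by 2.97 ± 0.39 on the log2 scale from stage 25 to 35 (limma adjusted p = 0.000113) and by 3.49 ± 0.48 from stage 25 to 40 (limma adjusted p = 0.00019). The fall from stage 25 to 30, by 1.56 ± 0.39 with the same size in both clutches, was at the threshold (limma adjusted p = 0.0465, beside 1.13% of all tested models called lower) and was lost without any 1 of the 4 libraries compared and without the stage 8 Ueno library.

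rpe65.L was low through the neurula stages, at 0.97 and 0.40 TPM at stage 15. It was at 2.29 and 0.67 TPM at stage 25, at 2.84 and 1.70 TPM at stage 30, at 12.8, 2.92 and 3.97 TPM at stage 35 and at 24.3 TPM at stage 40. From stage 25 to 40 it rose by 3.25 ± 0.58 (limma adjusted p = 0.00134). The rise from stage 25 to 35, 1.65 ± 0.46 (limma adjusted p = 0.0185), was lost without stage 35 Taira or stage 25 Ueno. In stage 40 Taira the L copy was thus above the S copy, while at stage 25 it had been far below it in both clutches.

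**Figure D5:**
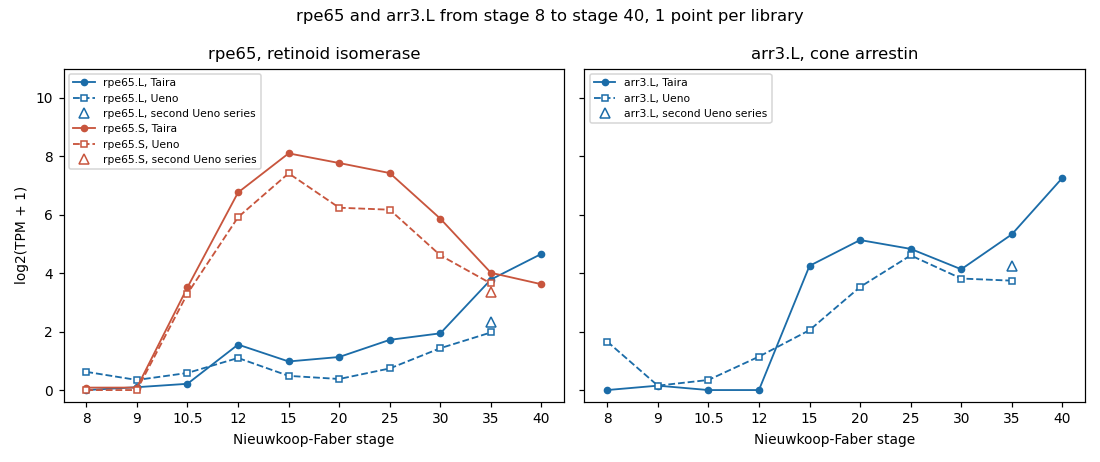
log2(TPM + 1) of rpe65.L and rpe65.S (left) and arr3.L (right) by Nieuwkoop-Faber stage, stages evenly spaced, 1 point per library. rpe65.S peaks at stage 15 at 273 TPM in Taira and 170 TPM in Ueno, while rpe65.L and arr3.L are highest at stage 40.

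arr3.L (Xelaev18038631m), named for cone arrestin, had the earliest onset of the retina models, by a measure that needs the level to last to stage 40. The rod channel model cnga1.L was at 1.15 and 1.12 TPM at stage 8 and at 4.29 and 3.51 TPM at stage 15. It was at 0.66 TPM at stage 40 and so had no onset by that measure. arr3.L was at 0 in Taira and 1.21 TPM in Ueno at stage 12, at 18.0 and 3.14 TPM at stage 15, at 34.1 and 10.5 TPM at stage 20 and at 27.5 and 23.4 TPM at stage 25. At stage 30 it was at 16.5 and 13.1 TPM, at stage 35 at 39.1, 12.4 and 18.0 TPM and at stage 40 at 152 TPM. The stages from 20 to 35 overlapped, and stage 40 was above every other library. The log2 difference from stage 25 to 40 was 2.40 ± 0.91 and was not called (limma adjusted p = 0.0629), and it was called under 6 of the alternatives.

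Several members of the cascade stayed near the limit of these libraries. The catalytic phosphodiesterase models of rods and cones, pde6a and pde6c in both copies, were at most at 0.76 TPM in any library of stages 25 to 40. rcvrn.1.L and rcvrn.1.S were above 1 TPM only at stage 40, at 1.59 and 1.37 TPM. guca1b-like.S, a guanylate cyclase activator, had a listed level of 0 at stage 25 in both clutches and was at 0.77 and 0.55 TPM at stage 30, at 1.12, 2.96 and 2.92 TPM at stage 35 and at 3.36 TPM at stage 40, and it was called from stage 25 to 35 (limma adjusted p = 0.000594). guca1a.S was at 3.80 and 0.43 TPM at stage 25 and at 0.76 TPM, 0 and 0.28 TPM at stage 35. It fell by 0.98 ± 0.35 (limma adjusted p = 0.0483), a call that was lost when any of 5 libraries was left out, with limma adjusted p up to 0.509. In the lens, the beaded filament models bfsp1.L and bfsp2.L were at 2.26 and 1.33 TPM at stage 40. The small heat shock crystallin cryab, also found in muscle, was at most at 0.63 TPM in the libraries of stages 25 to 40 in both copies.

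The non-visual opsins were low. opn5.2.L, a neuropsin of a family that responds to ultraviolet light, had its highest levels at stage 12, 8.55 and 9.59 TPM. It was at 5.47 and 2.81 TPM at stage 25, at 2.43 TPM, 0 and 1.23 TPM at stage 35 and at 1.85 TPM at stage 40. It fell by 1.42 ± 0.43 from stage 25 to 35 (limma adjusted p = 0.0243), which was lost without stage 25 Taira, without stage 35 Ueno and with the second-series library in its place. The melanopsin model opn4.1 was between 0.42 and 1.87 TPM in the libraries of stages 25 to 40.

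The general G protein beta subunit gnb1, which is also the beta subunit of rod transducin, had its highest levels in eggs. gnb1.S was at 269 and 201 TPM in eggs, at 138 and 53.6 TPM at stage 25, at 58.2, 20.6 and 27.1 TPM at stage 35 and at 41.9 TPM at stage 40. It fell by 1.28 ± 0.35 from stage 25 to 35 (limma adjusted p = 0.0161) and by 1.38 ± 0.44 from stage 25 to 40 (limma adjusted p = 0.0312). Both calls were lost without stage 25 Taira, the first also without stage 35 Ueno and the second also after median-of-ratios scaling. gnb1.L was at 296 and 253 TPM in eggs and at 40.8 TPM at stage 40, and it was not called from stage 25 to 40 (-0.89 ± 0.52, limma adjusted p = 0.21). pde6d.S, of a prenyl-binding protein that is not confined to photoreceptors, was at 1.97 and 1.41 TPM at stage 25 and at 0.57 TPM, 0 and 0.27 TPM at stage 35 (-1.09 ± 0.33, limma adjusted p = 0.0264), a call that was lost without either stage 25 library or without stage 35 Ueno.

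Copies on the L and S subgenomes were compared over stages 30 to 40 with limma on the log2 ratio of both copies. In 8 of the 15 pairs the copies differed, beside 71.3% of the 6651 pairs tested. gnat1 was higher on L, by 1.60 ± 0.12 on the log2 scale (limma adjusted p = 2.1e-08). At stage 40 that was 39.5 TPM for L against 7.99 TPM for S. cryba1 was higher on S, by a log2 ratio of L to S of -1.31 ± 0.23 (limma adjusted p = 0.000144), with 267 TPM for S against 126 TPM for L at stage 40. rpe65 was higher on S over these stages, -1.12 ± 0.20 (limma adjusted p = 0.000163), though at stage 40 the L copy was above. The rlbp1 ratio was 0.60 ± 0.13 (limma adjusted p = 0.000944). The other pairs that differed were opn5.2 and cnga1, higher on L, and guca1a and pde6h, higher on S, with log2 ratios from -0.54 to 0.62. The pde6h difference was lost with a pseudocount of 0.1 or 5, without the clutch block and in a fit of stages 15 to 40 alone. It was also lost without either stage 30 library, without stage 35 Ueno or with the second-series library in its place. Leaving out the Ueno libraries of stages 8, 10.5 and 12 lost it too. At stage 40 the L copy of pde6h, at 6.65 TPM, was above its S copy, at 6.20 TPM. The copies of guca1a and cnga1 were at most at 1.11 TPM in the libraries of stages 30 to 40. Both of their differences were lost with a pseudocount of 5. The copies of crybb1 (0.09 ± 0.17), cryba4 (-0.11 ± 0.17), mip (0.16 ± 0.13) and rcvrn.2 (0.10 ± 0.10) did not pass the test. Copies are near-identical in parts, so the authors' assignment of shared reads bears on each of these ratios.

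Other genes of the same pathways were taken from lists. Their calls were not checked under the alternative settings or with a library left out, unlike those of the members. Among the photoreceptor regulators, 7 of 22 tested models were higher and 1 lower at stage 35 than at stage 25, beside 9.01% and 19.4% of all tested models. crx.S, a homeobox factor of photoreceptor genes, was at 3.27 and 0.77 TPM at stage 25, at 14.9 and 7.96 TPM at stage 30, at 40.2, 17.2 and 21.9 TPM at stage 35 and at 29.2 TPM at stage 40. It was called already from stage 25 to 30 (2.12 ± 0.49, limma adjusted p = 0.0337), as were atoh7.S, neurod1.S, nrl.L and nrl.S. atoh7.S, needed for the first retinal neurons, was at 0.58 and 0.51 TPM and then at 21.1 and 9.89 TPM (3.33 ± 0.43, limma adjusted p = 0.000714). rax.S, a factor of the early eye field, was at 12.1 and 4.54 TPM at stage 25 and at 3.79, 1.82 and 1.55 TPM at stage 35 (-1.21 ± 0.40, limma adjusted p = 0.0363). The median log2 difference of the list from stage 25 to 35 was 0.32, against -0.38 over all tested models.

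Lens regulators and other lens genes gave 3 called of 19 tested models from stage 25 to 35, each higher, beside 9.01% higher and 19.4% lower over all tested models. The list median of -0.39 was close to the -0.38 over all tested models. hspb1.L, a small heat shock protein, was at 1.48 and 0.92 TPM at stage 25, 9.63 and 10.1 TPM at stage 30 and 10.2, 7.57 and 8.73 TPM at stage 35 (2.17 ± 0.25, limma adjusted p = 3.98e-05). mafb.L, of the family that binds crystallin enhancers, was at 17.0 and 16.1 TPM and then at 26.8, 30.1 and 27.9 TPM (0.74 ± 0.24, limma adjusted p = 0.0312). From stage 25 to 40, 1 of the 19 models was higher and 2 were lower, beside 9.22% and 19.1% of all tested models. The list median was -0.70, against -0.49 over all tested models. Over that span sox2.S, a factor of lens and neural ectoderm, fell by 1.74 ± 0.59 (limma adjusted p = 0.0408), with 112 and 150 TPM at stage 25 and 31.4 TPM at stage 40.

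Of the remaining phototransduction genes, 4 of 20 tested models were higher and 1 lower at stage 35 than at stage 25, beside 9.01% and 19.4% of all tested models. gngt2.S, the gamma subunit of cone transducin, had a listed level of 0 at stage 25 in both clutches and was at 0.87 and 0.50 TPM at stage 30, at 27.2, 3.33 and 13.9 TPM at stage 35 and at 26.7 TPM at stage 40. The change from stage 30 to 35 was 2.72 ± 0.54 (limma adjusted p = 0.0115). gnb5.S, the beta subunit that pairs with the regulator that ends transducin signalling, was at 1.09 and 0.19 TPM at stage 25 and at 7.50, 2.70 and 1.80 TPM at stage 35 (1.83 ± 0.30, limma adjusted p = 0.000743). gucy2d.L, the guanylate cyclase of photoreceptors, was at 5.11 TPM at stage 40, against 0.51 and 0.22 TPM at stage 25 (2.12 ± 0.29, limma adjusted p = 0.0002). gnb3.S, named for the cone transducin beta subunit, was at 44.6 and 106 TPM at stage 25 and at 24.1, 34.3 and 27.6 TPM at stage 35 (-1.23 ± 0.40, limma adjusted p = 0.0363).

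Visual cycle and pigment epithelium genes gave 6 higher and 2 lower of 14 tested models from stage 25 to 35, beside 9.01% and 19.4% of all tested models. The melanin enzymes, which neural crest pigment cells share with the pigment epithelium, led. tyr.S, tyrosinase, was at 0.98 and 0.71 TPM at stage 25, at 25.4 and 23.4 TPM at stage 30 and at 78.0, 59.7 and 61.5 TPM at stage 35 (5.23 ± 0.36, limma adjusted p = 3.71e-07). It was called from stage 25 to 30, as was dct.L (3.82 ± 0.58, limma adjusted p = 0.00219). rgr.1, a retinal photoisomerase of pigment epithelium and Müller glia, was at 1.66 and 0.39 TPM at stage 25, at 35.3, 14.8 and 13.2 TPM at stage 35 and at 61.2 TPM at stage 40 (4.94 ± 0.47 from stage 25 to 40, limma adjusted p = 7.56e-06). lrat.L, which makes the retinyl esters that rpe65 uses, was at 19.9 and 12.4 TPM at stage 25 and at 5.74, 1.10 and 2.51 TPM at stage 35. It fell by 2.15 ± 0.39 (limma adjusted p = 0.00139), as rpe65.S did over the same stages.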

How the data were processed

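A single table of TPM per gene model, made and deposited by the authors, covers 28 libraries and was used unchanged. The submitters' processing notes name BWA 0.7.10 and RSEM 1.2.19, and the file's label names JGIv18pV2 as the cDNA set. Program settings and the read counts behind the table are not given in the sources used here. RSEM shares reads between similar copies by estimate, so levels of near-identical copies are uncertain. TPM is relative within a library, so a rise of some genes lowers others. It keeps no read depth, so no count test, floor or interval for counting error was possible.

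The fit used limma 3.58.1 in R 4.3.3 on log2(TPM + 1), by empirical Bayes with an intensity trend, stage and clutch as terms, 9 residual degrees of freedom, two-sided tests and Benjamini-Hochberg adjustment over all models in each contrast. The filter was TPM of at least 1 in at least 2 of 21 libraries. Replicates are 1 library from each of 2 clutches. The p-values measure the spread between clutches after their mean difference, pooled over all stages in the fit. That estimate takes in stages at which a model was near 0, so it is not the spread at the stages compared. The clutch label pairs samples: over 45 pairs of stages, clutch deviations correlated with a median r of 0.42, from 0.17 to 0.88. Pairs of copies needed a summed TPM of 2. Models with at least 10 TPM in a library of stages 25 to 40 were named with values, as were called genes of the related lists; low models were named after their values were seen. Members and lists were chosen with earlier results of these data known. The script was checked on simulated data. Of the 61 symbols, 43 matched RefSeq symbols.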

Additional observations from a re-analysis of the deposited data

Results flagged for a closer look

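Crystallin signal at a stage without a lens was the first pattern that called for a closer look. In stage 8 Ueno, crybb2.L was at 28.44 TPM, crybb2.S at 27.13 TPM, crybb3.L at 7.79 TPM and cryba1.L at 7.12 TPM, while stage 8 Taira listed all 4 at 0 and the second stage 8 Ueno library had 0.04 TPM of cryba1.L and 0 of the others. In stage 8 Ueno, 17 models had at least 5 TPM while staying under 0.3 TPM in the 6 other libraries of eggs and stages 8 and 9. The number of such models was 0 for stage 8 Taira and 2 for the second stage 8 Ueno library. Of the 17, 4 were lens or phototransduction models, which were 61 of the 45831 models in all. These are the 4 crystallins that had drawn attention to the library, so their count adds no separate evidence. The cause was not tested.

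Oocytes of stages 3-4 and 5-6, which enter no comparison, held pde6d.1 above the egg level. It was at 17.04 TPM in oocytes of stages 3-4 and at 14.51 TPM in those of stages 5-6, with 1 library each, against 6.49 and 2.01 TPM in the Taira and Ueno eggs and 4.95 TPM in oocytes of stages 1-2. At stage 8 it was again above both eggs, at 20.39 TPM in Taira, 14.28 TPM in Ueno and 14.22 TPM in the second Ueno series. No group had 4 or more samples, so single samples could not be tested against their group.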

How the results depend on the processing

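Counts of models called higher moved by over 1.5 times under several alternatives. With the library labelled stage 40 Ueno kept, they were 0, 0, 0, 7 and 1 (stage 25 to 30, 30 to 35, 35 to 40, 25 to 35 and 25 to 40), and the log2 differences of cryba4.S (-1.39), crygb.L (-0.71) and opn1lw.1 (-0.51) from stage 35 to 40 and of arr3.L (-1.09) from stage 25 to 40 turned. From stage 25 to 30 the 4 calls became 8 after median-of-ratios scaling, 7 with the second Ueno series added and 7 with its stage 35 library in place of the first. From stage 30 to 35 the 15 became 5 with a pseudocount of 0.1. From stage 35 to 40 the 6 became 0 with a pseudocount of 0.1, 13 with one of 5, 14 with no filter, 0 with a filter of 5 TPM, 11 after median-of-ratios scaling and 0 with stages 15 to 40 only. From stage 25 to 40 the 22 became 33 with no filter. Leaving out 1 library at a time gave 3 to 8, 8 to 17, 2 to 13, 17 to 19 and 21 to 22. Without the clutch as replicate block the counts were 4, 12, 5, 17 and 22, and 12 single calls were lost. Of 1372 values of single models under alternatives, 1192 kept direction and call, 170 lost the call, 6 gained it and 4 turned. Pairs of copies that differed numbered 6 to 12 under the alternatives, against 8. Each stage has 2 libraries and stage 40 has 1, which limits the precision of every step. The second-series replacement and the fits without early Ueno libraries were chosen after seeing the data. The planned search of promoter sequences was not run. Other causes were not tested.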

Other observations

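A pair of lists of genes outside the eye were read beside the members, also without a check of their calls under the alternatives. Of 12 tested models of muscle and heart, 6 were higher and 1 lower at stage 35 than at stage 25, beside 9.01% and 19.4% of all tested models, with a median log2 difference of 1.26 against -0.38 over all tested models. ckm.L was at 515 and 576 TPM at stage 25 and at 2910, 3040 and 3107 TPM at stage 35, so for ckm.L the Ueno libraries were above Taira. The list drawn up for pineal and hypothalamic photoreceptors had 2 tested models. Of these 1 was lower at stage 35 than at stage 25, beside 19.4% of all tested models. It was tmtops.L, and whether its RNA came from those cells was not tested. Its level went from 2.01 and 1.37 TPM at stage 25 to 0.10 TPM, 0 and 0.24 TPM at stage 35 (-1.35 ± 0.36, limma adjusted p = 0.0152).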
